A study of Mus musculus with 6 samples.

Results

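The genes described here encode the ligands, latency proteins, receptors and Smad proteins of the BMP, TGF-beta and activin pathways, together with the BMP antagonist Grem1. They were chosen by symbol, as every probe set whose only platform gene symbol begins with Bmp, Bmpr, Tgfb, Tgfbr, Gdf, Inhb, Acvr, Smad or Ltbp in the form used for those families, or is Grem1. The rule found 109 of the 45101 probe sets on the array, and these stand for 51 genes. The rule reads symbols only, although it was set with earlier results of these data known. The symbols also bring in Tgfb1i1, Tgfbrap1 and Bmp2k, which are neither ligands, receptors nor Smads.

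The study comprises 6 Affymetrix expression arrays, of which 3 held RNA from TRAP (translating ribosome affinity purification), in which tagged ribosomes are pulled out of a lysate with the mRNA bound to them, and 3 held RNA from whole cortex lysate left after the pull-down, called unbound here. Sample titles call the second group input, whereas other labels name it unbound or flow-through. Both groups came from untreated cortex of one BAC transgenic mouse line, ES691, in which S100a10 regulatory sequence is the driver, backcrossed for 3 to 5 generations from FVB onto C57BL/6. Sample titles call the arrays of each group biological replicates, but no age, sex or number of animals per sample was given. The p-values thus cover the spread of these 6 samples and may leave out that between animals. The series text says that the driver also labels some non-neuronal cells, and the published probe set list it recommends was not used here, so TRAP values cover every labelled cell.

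Ligands of this superfamily bind pairs of type I and type II receptor kinases. The type I kinase phosphorylates a receptor Smad, namely Smad1, Smad5 or Smad9 after BMPs and Smad2 or Smad3 after TGF-beta and activins, which enters the nucleus with Smad4, and the inhibitory Smads, Smad6 and Smad7, damp the signal and are themselves induced by it. In the brain, meninges and choroid plexus are known sources of BMPs during development, activin A is induced in forebrain neurons by activity, and TGF-beta acts on vessels and microglia.

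The arrays differed in ways that touch every value below. S100a10 itself, the driver, ranged from 12934 to 15087 in TRAP RNA and from 2165 to 2950 in unbound RNA. The array medians lay between 31.3 and 31.6 on TRAP arrays and between 42.3 and 43.0 on unbound arrays, and the median log2 fold change (TRAP minus unbound) of all 22591 probe sets tested was -0.25. After each array was centred on its median over those probe sets, that value was 0.01, so log2 fold changes close to -0.25 are close to the bulk of probe sets, and centred values are given where the direction depends on it. Many probe sets held exactly the same value on several arrays of a group, between 17.9% and 21.6% on any pair within a group and 0% on any pair across groups. At least 1 such repeat was present in 34 of the 59 signalling probe sets tested (57.6%) and in 53.6% of all tested, and where it gives an SD of 0 the error is understated.

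Markers of other cells moved between the groups as well. Of 13 meningeal fibroblast markers tested, 12 were at least 2-fold higher in TRAP RNA and Pdgfra was lower, though after centring Pdgfra was not called (log2 -0.18, limma adjusted p = 0.34). The summed level of the list ranged from 39966 to 44638 on TRAP arrays and from 1874 to 2270 on unbound arrays. Col1a1 of that list lay under the level minimum, at 39.9 and 11.1. Pericyte and smooth muscle markers went both ways, at least 2-fold higher in 4 of 6 while Rgs5 was 4.66-fold lower (summed level 5412 to 6768 on TRAP arrays, 1883 to 2227 on unbound arrays). Kcnj8 (8.67 in TRAP RNA, 14.9 in unbound RNA), Abcc9 (5.17 and 48.2) and Anpep (19.1 and 19.3) of that list lay under 50 in both groups. Endothelial markers also went both ways, with Itm2a and Abcb1a higher and Slco1c1 (5.94-fold) and Cldn5 (1.30-fold) lower. After centring Cldn5 was not called (log2 -0.11, limma adjusted p = 0.37). The endothelial sum (4149 to 4517 on TRAP arrays, 778 to 869 on unbound arrays) was mostly Itm2a, which averaged 4088 in TRAP RNA and 467 in unbound RNA. The endothelial genes Pecam1, Flt1, Kdr, Cdh5 and Tek had group means under 50 in both groups. Choroid plexus markers were at least 2-fold higher in 2 of 4, Kcnj13 and Kl, and Clic6 was 1.34-fold lower. Ttr, the remaining marker tested, was lower on average with overlapping groups and was not called (log2 -2.43, SE 1.59, limma adjusted p = 0.23). Kl averaged 50.6 in TRAP RNA and 18.7 in unbound RNA, a 1.08-fold difference with values under 50 raised to 50. Folr1, Aqp1 and Otx2 of that list lay under 50 in both groups. Of 8 astrocyte markers 1 rose and 3 fell by 2-fold or more. Markers of oligodendrocytes (7 of 7), microglia (5 of 6) and interneurons (6 of 8) were at least 2-fold lower. The 7 pyramidal neuron markers, the cells named in the title of the study, were present in both groups. Their summed levels were 14538 to 14838 on TRAP arrays and 13170 to 15646 on unbound arrays. Without a fold limit, 3 were called higher and 2 lower. By 2-fold or more, 0 were higher and 1, Camk2a, was lower (2.84-fold). A shift in cell makeup and a shift in RNA per cell cannot be told apart in such samples.

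A probe set was tested if its group mean reached an intensity of 50 in at least 1 group. That kept 59 of the 109 signalling probe sets, for 36 of the 51 genes. The closest values on either side of the limit were top group means of 54.4 (kept) and 46.5 (left out). Of the 59, 11 reached 50 in 1 group only, and such probe sets had to differ, so counts over the 59 describe them and support nothing further. Each gene is described by its brightest tested probe set (mean of the 6 arrays), and a call means a limma adjusted p under 0.05 over all probe sets tested.

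Among the 59 probe sets, 13 were called and at least 2-fold higher in TRAP RNA, which is the case for 6.17% of all probe sets tested, and 10 were called and at least 2-fold lower (16.6% of all). Without the fold limit 16 were higher (20.6% of all) and 27 lower (47.7% of all), and the median log2 fold change of the 59 was -0.35. After centring on the probe sets tested, 19 were higher and 16 lower, and over all probe sets the share of calls that were higher moved to 50.5%, against 30.2% before centring. By gene, 10 of 36 were called with a 2-fold or larger increase (7.29% of all genes) and 6 with such a decrease (13.3% of all genes), and without the fold limit 11 were higher (23.2% of all genes) and 17 lower (45.6% of all genes). When limma's treat asked for more than a 2-fold change, Bmp2 (adjusted p = 0.12), Inhbb (0.086), Inhba (0.19), Tgfb2 (0.089) and Tgfbr3 (0.052) were not called. When both group means had to reach 50, the 13 and 10 probe sets became 8 and 5.

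**Figure D1:**
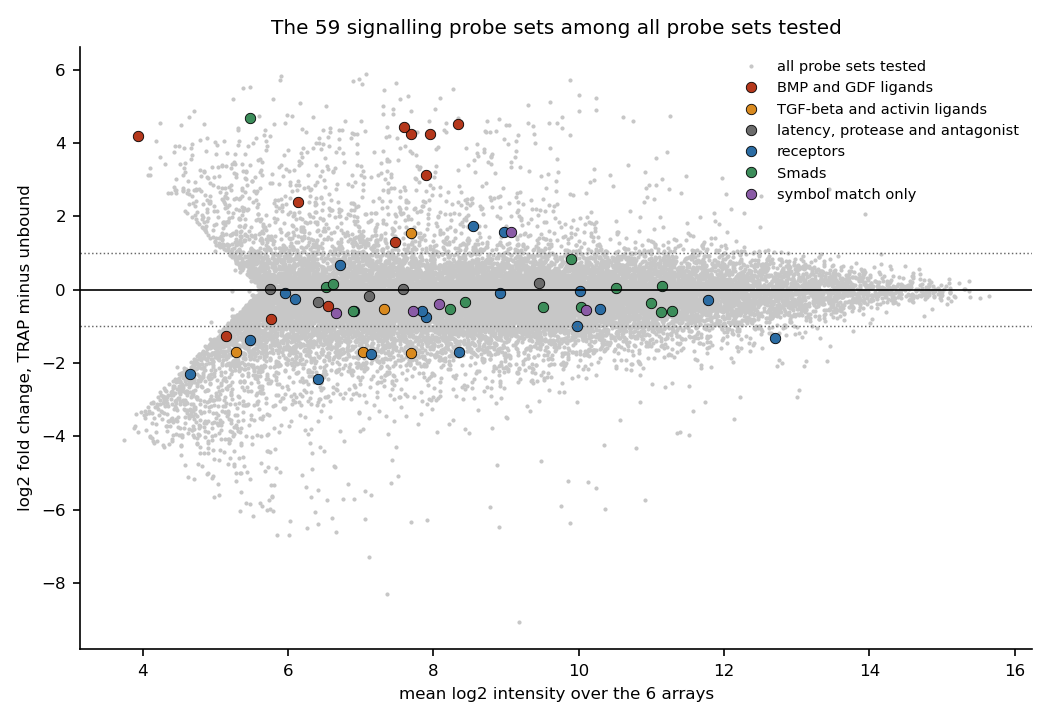
Log2 fold change (TRAP minus unbound, vertical axis) against mean log2 intensity over the 6 arrays (horizontal axis) for all 22591 probe sets tested (grey) and the 59 signalling probe sets (coloured by role); dotted lines mark 2-fold. Smad6 and probe sets of Bmp4, Bmp5, Bmp6 and Bmp7 lie above 4 on the vertical axis. Receptor probe sets lie mostly below 0, as do most of all probe sets tested (median -0.25).

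Promoter windows of 4 genes that the results turn on are shown first, because they differ in the letters that Smad proteins bind. They run from 250 bases before to 50 bases after the RefSeq start (GRCm38.p6), 5′ to 3′. Capitals mark GGCGCC, a GC-rich element bound by BMP Smads, CAGAC, the core of the Smad box, and GTCTAGAC, the palindromic Smad element, each searched on both strands. Bmp4 and Bmp6 are ligands that were higher in TRAP RNA, Smad6 is the inhibitory Smad that was higher with them, and Bmpr2 is the type II BMP receptor that was lower.
Smad6 (chr9:64022010-64022309, minus strand): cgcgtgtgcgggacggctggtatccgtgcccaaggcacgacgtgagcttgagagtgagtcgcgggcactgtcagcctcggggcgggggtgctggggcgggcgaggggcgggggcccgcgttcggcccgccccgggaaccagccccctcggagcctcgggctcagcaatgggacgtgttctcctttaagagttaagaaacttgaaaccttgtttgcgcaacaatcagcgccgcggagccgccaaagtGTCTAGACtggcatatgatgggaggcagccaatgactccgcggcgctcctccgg
Bmp4 (chr14:46390620-46390919, minus strand): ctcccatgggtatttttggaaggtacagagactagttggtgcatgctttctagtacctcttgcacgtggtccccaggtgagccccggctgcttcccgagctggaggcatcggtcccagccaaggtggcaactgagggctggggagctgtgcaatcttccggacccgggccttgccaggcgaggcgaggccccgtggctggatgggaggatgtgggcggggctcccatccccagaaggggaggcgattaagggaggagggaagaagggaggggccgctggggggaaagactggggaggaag
Bmp6 (chr13:38345466-38345765, plus strand): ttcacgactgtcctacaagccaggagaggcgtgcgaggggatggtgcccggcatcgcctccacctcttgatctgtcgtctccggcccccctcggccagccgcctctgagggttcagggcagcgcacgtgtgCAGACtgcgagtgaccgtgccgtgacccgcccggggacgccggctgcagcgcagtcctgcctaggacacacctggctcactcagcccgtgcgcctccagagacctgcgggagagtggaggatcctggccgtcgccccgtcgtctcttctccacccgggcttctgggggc
Bmpr2 (chr1:59764029-59764328, plus strand): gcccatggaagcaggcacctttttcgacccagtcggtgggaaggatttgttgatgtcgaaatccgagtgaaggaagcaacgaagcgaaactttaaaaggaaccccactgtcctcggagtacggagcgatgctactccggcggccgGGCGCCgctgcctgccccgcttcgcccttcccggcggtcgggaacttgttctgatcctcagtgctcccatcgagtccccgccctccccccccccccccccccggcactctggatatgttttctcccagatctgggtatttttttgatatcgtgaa

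The Smad6 window holds GTCTAGAC, which begins 4 bases before the start, a match shared by 70 of 32851 promoter windows (0.213%). Bmp6 holds CAGAC at 119 bases before its start, as 49.6% of all windows do on either strand. Bmpr2 holds GGCGCC at 105 bases before its start, and 11.9% of all windows hold it. The Bmp4 window holds none of the searched letters. RefSeq windows were matched for 38 of the 51 genes and 26 of the 36 tested. Taking the most upstream listed start of each gene, GGCGCC was in 7 of those 26, CAGAC in 9 and GTCTAGAC in 1. Of the 6 genes at least 2-fold higher that had a window, 0 held GGCGCC and 3 held CAGAC, and of the 6 at least 2-fold lower, 1 held GGCGCC and 2 held CAGAC. The motifs do not lie within each other, and a match only describes the letters.

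Several BMP ligands were higher in TRAP RNA. Of 15 BMP and GDF ligand genes, 8 were tested. Bmp2, Bmp4, Bmp5, Bmp6 and Bmp7 were each at least 2-fold higher, and Bmp4, Bmp5, Bmp6 and Bmp7 by 18.9-fold or more. That is 5 of the 8, beside 7.29% over all genes. The describing probe sets of Bmp5 and Bmp7 reached the level minimum in TRAP RNA only, with unbound means of 47.7 and 41.3. These had to differ, so the count supports nothing further. Bmp6, a ligand of the same subgroup as Bmp5 and Bmp7, measured 1540 on each TRAP array and 60.1, 71.6 and 71.6 on the unbound arrays. The groups lay far apart with no overlap, and its log2 fold change was 4.51 (SE 0.08, 22.8-fold, limma adjusted p = 1.6e-06). Bmp4, which patterns dorsal forebrain, measured 1073 on each TRAP array against 57.4, 55.8 and 57.4 on the unbound arrays. That is an 18.9-fold difference (log2 4.24, SE 0.02, adjusted p = 2.4e-07), and the repeated TRAP value leaves its spread unknown.

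Bmp7, known from meninges and choroid plexus in development, measured 719, 1078 and 940 on the TRAP arrays and 41.3 on each unbound array. Every TRAP value was above every unbound value, by 21.8-fold on average (log2 4.45, SE 0.16, adjusted p = 1.5e-05) and by 18.0-fold once values under 50 were raised to 50. The other Bmp7 probe sets pointed the same way, one with means of 702 and 80.6 (8.70-fold, adjusted p = 1.9e-06) and one with 66.3 and 3.60, whose 18.2-fold difference shrank to 1.31-fold with raised values (adjusted p = 0.056). Bmp5 measured 1160, 995 and 635 on the TRAP arrays and 45.2, 52.6 and 45.2 on the unbound arrays. It had the widest TRAP spread of the raised ligands, but its groups did not overlap (19.0-fold, or 17.7-fold with raised values, log2 4.25, SE 0.24, adjusted p = 8.3e-05). A second Bmp5 probe set gave means of 162 and 30.8, a 5.25-fold difference, or 3.23-fold with raised values.

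Bmp2, closely related to Bmp4, differed less. It measured 263, 266 and 315 on the TRAP arrays and 103, 126 and 110 on the unbound arrays, again without overlap (2.48-fold, log2 1.31, SE 0.11, adjusted p = 3.3e-04). On the same TRAP arrays 12 of 13 meningeal fibroblast markers were higher, while pericyte and endothelial markers went both ways, and their part in the ligand values was not tested.

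The GDF ligands behaved otherwise. Gdf11, a relative of myostatin, measured 22.9 on each TRAP array and 55.2 on each unbound array (2.41-fold lower, log2 -1.27, SE 0.02, adjusted p = 1.5e-06). Both levels are near the limit of 50, and with raised values the difference was 1.10-fold. Gdf9, an oocyte ligand, was 1.72-fold lower at 41.3 against 71.3 (adjusted p = 2.7e-05), or 1.42-fold with raised values. Gdf10, known as BMP3B, had overlapping groups with means of 85.4 ± 36.7 and 112 ± 28.3 (SD, n = 3 each, limma adjusted p = 0.33), and with replicate number as a block the adjusted p was 0.046. Bmp8a, Bmp8b, Bmp10, Bmp15, Gdf2, Gdf3 and Gdf5 stayed under 50 in both groups and were not tested.

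**Figure D2:**
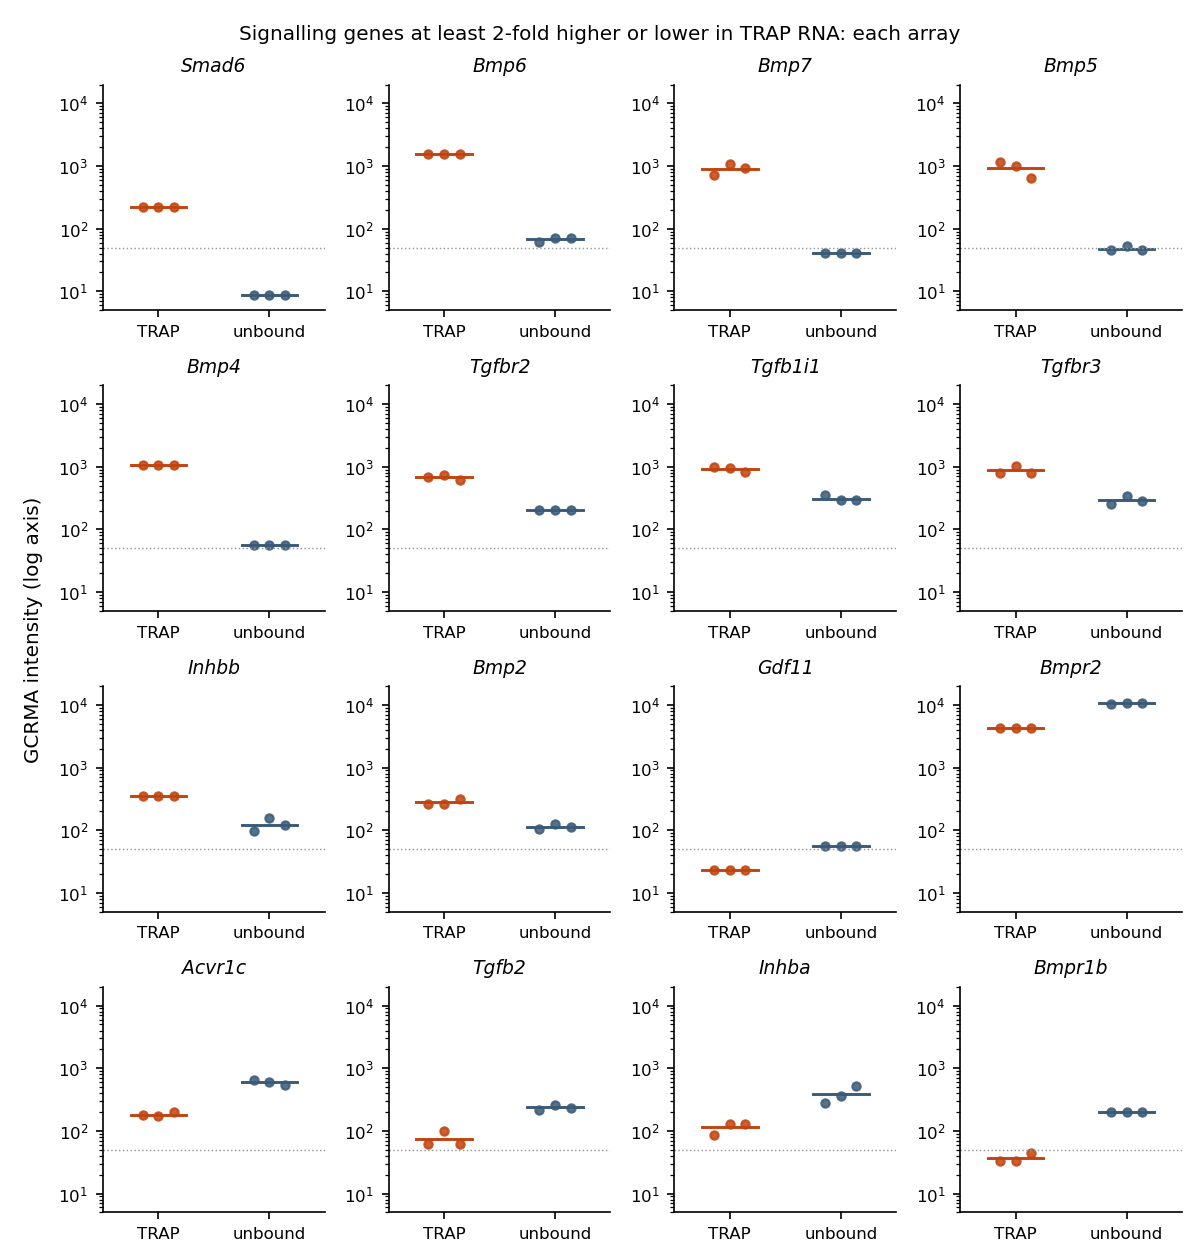
GCRMA intensity on each array (log axis) for the 16 signalling genes called at least 2-fold higher or lower, TRAP at the left and unbound at the right of each panel; points are single arrays, bars the group mean, and the dotted line the level of 50. The genes were picked for a called difference of this size, so the lack of overlap in all 16 panels adds no support. Several groups show 3 points at 1 value.

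TGF-beta and activin ligands split by gene. Inhbb, which encodes the activin B subunit, measured 356 on each TRAP array and 96.5, 154 and 119 on the unbound arrays. It was the only tested ligand of this branch that was higher (2.94-fold, log2 1.56, SE 0.18, adjusted p = 9.7e-04). Its other probe set stayed under 50. Inhba, the subunit of activin A, went the opposite way, with 86.7, 131 and 131 on the TRAP arrays and 281, 362 and 528 on the unbound arrays (3.30-fold lower, log2 -1.72, SE 0.30, adjusted p = 0.0048). The unbound values spread widely but stayed above each TRAP value.

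Tgfb2 measured 61.2, 99.9 and 61.2 on the TRAP arrays and 218, 262 and 229 on the unbound arrays. The groups were well apart (3.27-fold lower, log2 -1.71, SE 0.22, adjusted p = 0.0017), and a second Tgfb2 probe set was 3.23-fold lower, or 1.41-fold with raised values. Tgfb3 had 159, 130 and 116 on the TRAP arrays and 171, 200 and 205 on the unbound arrays. That 1.43-fold decrease (adjusted p = 0.026) was not called with replicate number as a block (adjusted p = 0.079) or after centring (log2 -0.25, adjusted p = 0.15). The call also went when TRAP array 2 or 3, or unbound array 2 or 3, was dropped (adjusted p of 0.065 to 0.085). Tgfb1, the third TGF-beta, had group means of at most 20.4 in TRAP RNA and 11.1 in unbound RNA and was not tested, nor were Inhbc and Inhbe.

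Latency proteins and the procollagen protease differed little. Ltbp3, which holds latent TGF-beta in the matrix, measured 531, 1015 and 776 on the TRAP arrays and 599, 725 and 654 on the unbound arrays. The TRAP arrays spread around the unbound ones (log2 0.19, SE 0.25, adjusted p = 0.55), and without TRAP replicate 2 the sign turned to -0.03. Ltbp4 was 1.27-fold lower (75.8 ± 3.27 against 96.5 ± 4.16, SD, n = 3 each, limma adjusted p = 0.0025), but after centring its log2 fold change was -0.09 (adjusted p = 0.34). Bmp1 is a metalloprotease that cleaves procollagen and chordin, not a ligand, and it was not called (114, 146 and 134 on the TRAP arrays against 146, 136 and 160 on the unbound arrays, adjusted p = 0.24), with a sign that turned after centring (log2 0.10). Ltbp1, Ltbp2 and the BMP antagonist Grem1 stayed under 50 in both groups.

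Of 11 tested receptor genes, 2 were higher, 6 lower and 3 not called, beside 23.2% higher and 45.6% lower over all genes. Both that were higher bind TGF-beta. Tgfbr2, the type II TGF-beta receptor, measured 683, 738 and 619 on the TRAP arrays and 204 on each unbound array. It was 3.32-fold higher (log2 1.73, SE 0.07, adjusted p = 2.3e-05) with no overlap. Tgfbr3, betaglycan, a co-receptor that presents TGF-beta to Tgfbr2, measured 806, 1020 and 794 on the TRAP arrays and 251, 340 and 285 on the unbound arrays (3.00-fold higher, log2 1.58, SE 0.16, adjusted p = 6.1e-04). Their type I partner Tgfbr1 overlapped between groups at 518, 470 and 423 on the TRAP arrays and 469, 513 and 519 on the unbound arrays (log2 -0.09, SE 0.09, adjusted p = 0.39), and its sign turned with scaling (log2 0.17 after centring, adjusted p = 0.14). Meningeal fibroblast markers were higher on the same arrays (12 of 13) and pericyte and endothelial markers went both ways, and their part was not tested.

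The describing probe sets of Bmpr2, Bmpr1b and Bmpr1a were lower. Bmpr2, the type II BMP receptor, measured 4219 on each TRAP array and 10356, 10668 and 10541 on the unbound arrays (2.49-fold lower, log2 -1.32, SE 0.02, adjusted p = 1.9e-06). One further Bmpr2 probe set was lower near background (11.4 against 56.1), a difference of 1.14-fold with raised values (adjusted p = 0.12). The other overlapped, with 228, 107 and 274 on the TRAP arrays and 345, 158 and 410 on the unbound arrays. In that probe set each TRAP array lay below the unbound array of its own number, and the adjusted p was 0.37 without and 0.0014 with replicate number as a block.

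Bmpr1b, a type I receptor, measured 32.5, 33.5 and 44.5 on the TRAP arrays and 198 on each unbound array. It had the largest decrease among the describing probe sets (5.43-fold, log2 -2.44, SE 0.13, adjusted p = 6.7e-05), or 3.96-fold with raised values. Bmpr1a, the other BMP type I receptor, gave different answers by probe set. Its highest one read 1040, 1041 and 1040 on the TRAP arrays and 1512 on each unbound array (1.45-fold lower, log2 -0.54, SE 0.02, adjusted p = 2.3e-05). Of its 5 tested probe sets 3 were lower, 1 was not called and 1, of the type that can detect several transcripts, was higher at 123, 143 and 131 on the TRAP arrays against 83.1 on each unbound array (1.59-fold, adjusted p = 4.0e-04). No single direction can be given for Bmpr1a from these values.

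The receptors that take activins and related ligands were lower or not called. Acvr1c, a type I receptor for nodal and some GDFs, measured 178, 172 and 197 on the TRAP arrays and 641, 598 and 540 on the unbound arrays (3.25-fold lower, log2 -1.70, SE 0.09, adjusted p = 5.3e-05). A second Acvr1c probe set, with 70.1, 59.2 and 111 on the TRAP arrays and 289, 195 and 312 on the unbound arrays, was 3.36-fold lower (adjusted p = 0.0053). Acvr2a, a type II activin receptor, fell just short of 2-fold at 721 ± 99.0 against 1411 ± 54.2 (SD, n = 3 each, 1.97-fold lower, limma adjusted p = 9.2e-04).

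Acvr2b was 1.19-fold lower (adjusted p = 0.0047), and after centring its log2 fold change was 0.02 (adjusted p = 0.80). Acvr1b, the activin type I receptor, was not called (log2 -0.28, SE 0.14, adjusted p = 0.13) except with replicate number as a block (adjusted p = 0.020). Acvr1, which serves Bmp6 and Bmp7, stood at 1028 on each TRAP array and 1007, 1070 and 1085 on the unbound arrays. It was not called (log2 -0.03, SE 0.04, adjusted p = 0.44), after centring it was 0.23 higher on the log2 scale (adjusted p = 0.017), and without unbound replicate 1 it was called lower (log2 -0.07, adjusted p = 0.049). Acvrl1, an endothelial type I receptor, had group means of at most 10.8 in TRAP RNA and 10.5 in unbound RNA and was not tested.

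**Figure D3:**
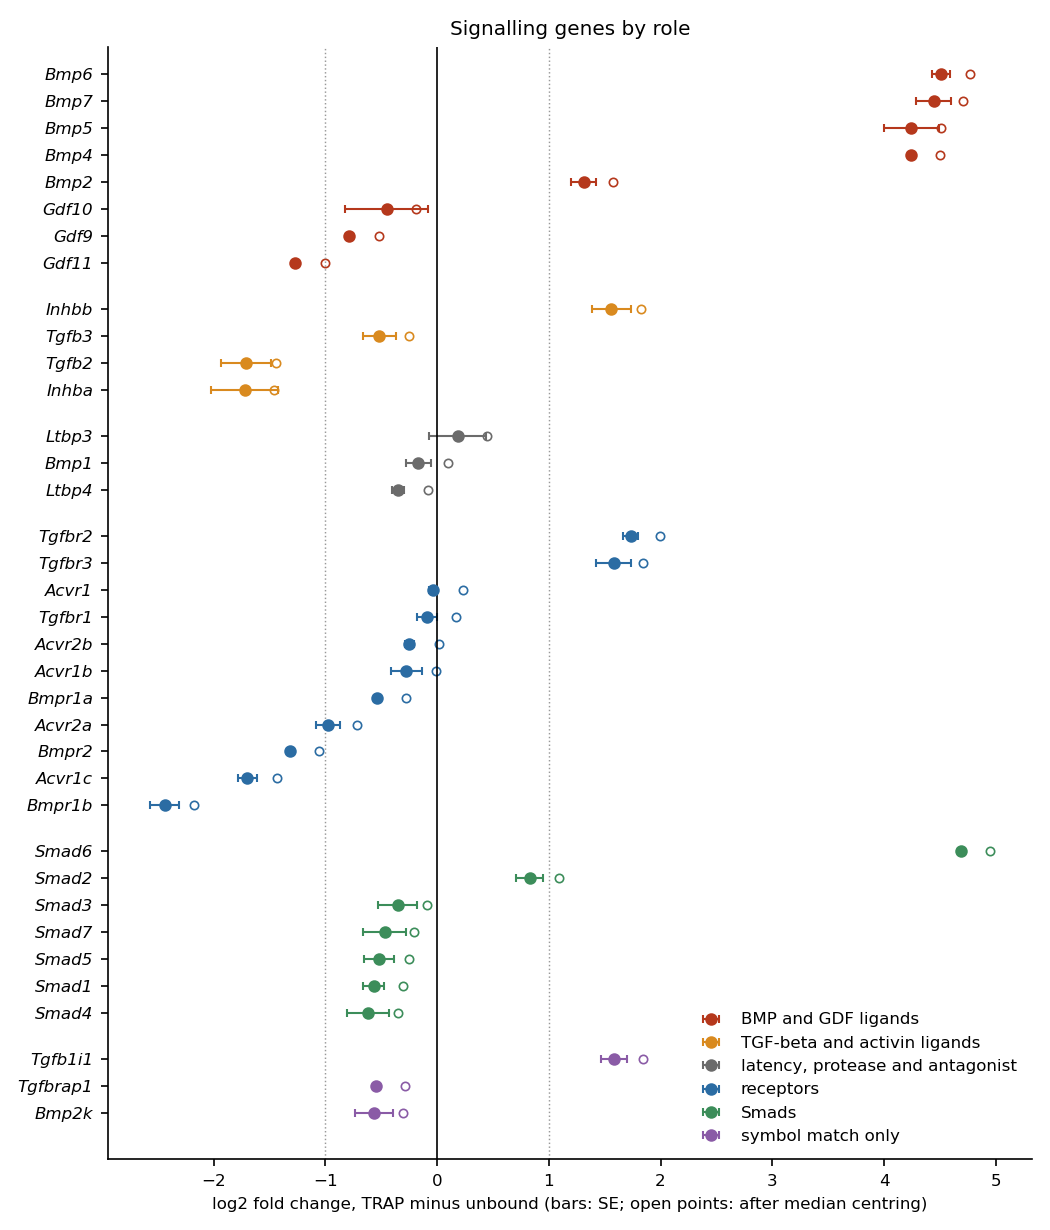
Log2 fold change (TRAP minus unbound, horizontal axis) of the 36 tested signalling genes, grouped by role; filled points are the values tested, bars their SE, open points the values after median centring on the probe sets tested, and dotted lines mark 2-fold. Smad6 and 4 BMP ligands lie beyond 4, and Bmpr1b lies lowest at -2.44.

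Among Smads, Smad6 had the largest difference. It measured 225, 226 and 225 on the TRAP arrays and 8.77 on each unbound array, a log2 fold change of 4.69 (SE 0.02, adjusted p = 2e-07). The unbound level is far under 50, so the 25.7-fold value is imprecise, and with values under 50 raised to 50 it was 4.51-fold, smaller than for Bmp4, Bmp5, Bmp6 and Bmp7. Smad7, the other inhibitory Smad, did not share that increase. Its probe sets read 616 ± 14.4 against 872 ± 231 (SD, n = 3 each, log2 -0.47, limma adjusted p = 0.078) and 307 ± 23.5 against 390 ± 34.2 (log2 -0.34, adjusted p = 0.019), and the first was called lower without unbound replicate 1 (adjusted p = 0.0033). After centring neither was called.

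Without centring, receptor Smads and Smad4 changed by less than 2-fold. Smad1 was 1.48-fold lower at 2064, 2166 and 1899 on the TRAP arrays against 3017, 3356 and 2738 on the unbound arrays (adjusted p = 0.0040), with no overlap. A further Smad1 probe set was 1.39-fold lower (adjusted p = 0.039), which the block did not call (adjusted p = 0.055), and a dim one was not called. After centring on the probe sets tested the describing probe set was still called (log2 -0.31, adjusted p = 0.037), the further one was not (adjusted p = 0.22) and the dim one was called higher (log2 0.33, adjusted p = 0.047). Centring over all probe sets ended the call of the describing one (log2 -0.13, adjusted p = 0.26). Smad5, its partner after BMP binding, was 1.43-fold lower (253 ± 39.5 against 361 ± 35.4, SD, n = 3 each, limma adjusted p = 0.022), a call lost once arrays were centred (adjusted p = 0.099) or once TRAP array 2 or 3, or unbound array 1 or 3, was dropped (adjusted p of 0.06 to 0.07). Smad9, the remaining BMP Smad, had group means of 9.54 in TRAP RNA and 4.81 in unbound RNA and was not tested.

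Smad2, which transduces TGF-beta and activin, was called in opposite directions by its probe sets. One read 1509, 1214 and 1108 on the TRAP arrays against 712 on each unbound array (1.78-fold higher, adjusted p = 0.0025), and the other 93.9, 116 and 84.5 against 166, 155 and 121 (log2 -0.59, adjusted p = 0.032). The first is of the type that detects several transcripts of a gene. After centring on the probe sets tested, the first was called higher by more than 2-fold (log2 1.09, adjusted p = 2.8e-04). The second was then not called (log2 -0.32, adjusted p = 0.13). Smad3 measured 1570, 2126 and 1765 on the TRAP arrays and 1896, 2642 and 2442 on the unbound arrays. These overlap (log2 -0.35, SE 0.17, adjusted p = 0.13), while with replicate number as a block the adjusted p was 0.014. A second Smad3 probe set was 1.11-fold higher (adjusted p = 0.014). After centring on the probe sets tested, the second was still called higher (log2 0.42, adjusted p = 0.0014) and the describing one was not called (log2 -0.09, adjusted p = 0.69). No single direction can be given for Smad3.

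Smad4, the common partner, measured 1795, 2317 and 1437 on the TRAP arrays and 3017, 2810 and 2544 on the unbound arrays. Its describing probe set was 1.53-fold lower (log2 -0.62, SE 0.19, adjusted p = 0.036), a call lost once arrays were centred (adjusted p = 0.12) and on dropping any array but TRAP array 2 (adjusted p of 0.062 to 0.11). Its other probe sets were not called, at log2 fold changes of 0.06 and 0.10, and after centring the second of these was called higher (log2 0.37, adjusted p = 0.0079). No single direction can be given for Smad4.

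The genes brought in by symbol alone differed as well. Tgfb1i1, a focal adhesion adaptor of smooth muscle and fibroblasts, measured 1005, 970 and 820 on the TRAP arrays and 350, 291 and 291 on the unbound arrays (3.00-fold higher, log2 1.58, SE 0.12, adjusted p = 2.0e-04). Tgfbrap1, a vesicle tethering protein that binds TGF-beta receptors, was 1.46-fold lower (adjusted p = 2.2e-05). Bmp2k, a kinase induced by Bmp2 in bone cells, was 1.48-fold lower (adjusted p = 0.032), a call lost once arrays were centred (adjusted p = 0.12) and on dropping any TRAP array or unbound array 2 (adjusted p of 0.056 to 0.096).

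The rest of the pathway was described through 6 lists with 84 genes, of which 56 were tested. Increases of 2-fold or more were called for 10 (7.29% of all genes) and such decreases for 13 (13.3% of all genes), and their median log2 fold change was -0.26, against -0.21 for all 12070 genes. Of 10 immediate targets tested, 4 were at least 2-fold higher and 1 lower. Msx1, a homeobox gene induced by BMPs, measured 1846, 1618 and 1244 on the TRAP arrays and 91.9, 96.6 and 105 on the unbound arrays (15.9-fold, adjusted p = 2.3e-05). Id1, a standard readout of BMP Smads, measured 917, 683 and 479 on the TRAP arrays and 118, 65.1 and 102 on the unbound arrays. It was 7.26-fold higher without overlap (log2 2.86, SE 0.34, adjusted p = 0.0012).

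Id3, the sister of Id1, was 3.44-fold higher (2034 ± 241 against 602 ± 158, SD, n = 3 each, limma adjusted p = 0.0011). Id4 was 2.40-fold lower (2349 ± 455 against 5613 ± 954, SD, n = 3 each, limma adjusted p = 0.0030), so the Id family did not move as one. The treat test did not call Id4 (adjusted p = 0.63). Id2 was 1.23-fold lower (adjusted p = 0.011), and -0.03 on the log2 scale after centring (adjusted p = 0.69). Msx1 and the Id genes are also expressed in meningeal and vascular cells. Meningeal markers were higher on the same arrays and vascular markers went both ways, and that part was not tested.

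Secreted antagonists went both ways, with 1 increase and 2 decreases of 2-fold or more among 11, near the shares of 7.29% and 13.3% over all genes. Fst and Chrdl1, the genes that decreased, reached 50 in unbound RNA only. They had to differ, so the count supports nothing further. Nbl1, a BMP antagonist of the DAN family, measured 1237, 1573 and 1436 on the TRAP arrays and 340, 340 and 352 on the unbound arrays (4.09-fold higher, adjusted p = 3.9e-05). Fst, follistatin, which binds activins, was 4.76-fold lower (39.3 ± 20.4 against 173 ± 20.0, SD, n = 3 each, limma adjusted p = 0.0039), or 3.20-fold with raised values. Chrdl1, a BMP antagonist of astrocytes and other cells, was 3.30-fold lower (adjusted p = 0.011), or 2.78-fold with raised values. By treat neither Fst (adjusted p = 0.071) nor Chrdl1 (adjusted p = 0.34) was called. Noggin (Nog) lay under 50 in both groups and was not tested.

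Genes of ligand processing and latent TGF-beta activation held 2 increases and 4 decreases of 2-fold among 8, beside 7.29% and 13.3% over all genes. Of these, Emilin1, Nrros and Pcsk6 reached 50 in 1 group only, so they had to differ. Pcsk6 was 2.76-fold lower, or 1.09-fold with raised values. Pcolce, an enhancer of procollagen cleavage by Bmp1, was 22.6-fold higher (2517 ± 841 against 109 ± 25.6, SD, n = 3 each, limma adjusted p = 1.7e-04). Emilin1, a matrix inhibitor of TGF-beta maturation, was 5.20-fold higher, or 1.18-fold with raised values. Itgb8, whose integrin activates latent TGF-beta, was 2.91-fold lower at 705, 709 and 834 on the TRAP arrays and 2323, 1954 and 2269 on the unbound arrays (adjusted p = 1.4e-04). Nrros, which holds latent TGF-beta on microglia, was 4.28-fold lower, or 2.11-fold with raised values, on arrays where 5 of 6 microglial markers were at least 2-fold lower, and their part was not tested.

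Coreceptors held 1 increase and 1 decrease of 2-fold among 7, beside 7.29% and 13.3% over all genes. Eng, endoglin, a co-receptor of endothelial cells, read 188 on each TRAP array and 91.2 on each unbound array (2.07-fold higher, adjusted p = 2.7e-06). Neo1, neogenin, a receptor for the BMP co-receptors of the Rgm family, was 2.42-fold lower (1793 ± 751 against 4113 ± 573, SD, n = 3 each, limma adjusted p = 0.021), a call lost on dropping TRAP array 3 or unbound array 2 or 3 (adjusted p of 0.065 to 0.072). Among 17 intracellular regulators 1 was at least 2-fold higher and 4 lower, beside the same shares over all genes. Tgif2, a co-repressor of Smads, was 2.58-fold higher (adjusted p = 8.3e-04), while Xiap (2.74-fold), Usp9x (2.40-fold) and the ubiquitin ligase Smurf1 (2.02-fold) were lower. By treat, Eng (adjusted p = 0.25), Tgif2 (0.18), Neo1 and Smurf1 were not called.

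Of 3 other superfamily ligands tested, Lefty1, an inhibitor of nodal signalling, measured 571, 504 and 415 on the TRAP arrays and 31.1 on each unbound array. It was 15.9-fold higher (adjusted p = 9.8e-06), or 9.85-fold with raised values. Inha, the alpha subunit that turns activin subunits into inhibins, was 4.27-fold lower (133 ± 12.5 against 569 ± 16.6, SD, n = 3 each, limma adjusted p = 1.6e-05). Inha and Inhba were thus lower together while Inhbb was higher, and no test of a difference between these genes was made.

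**Figure D4:**
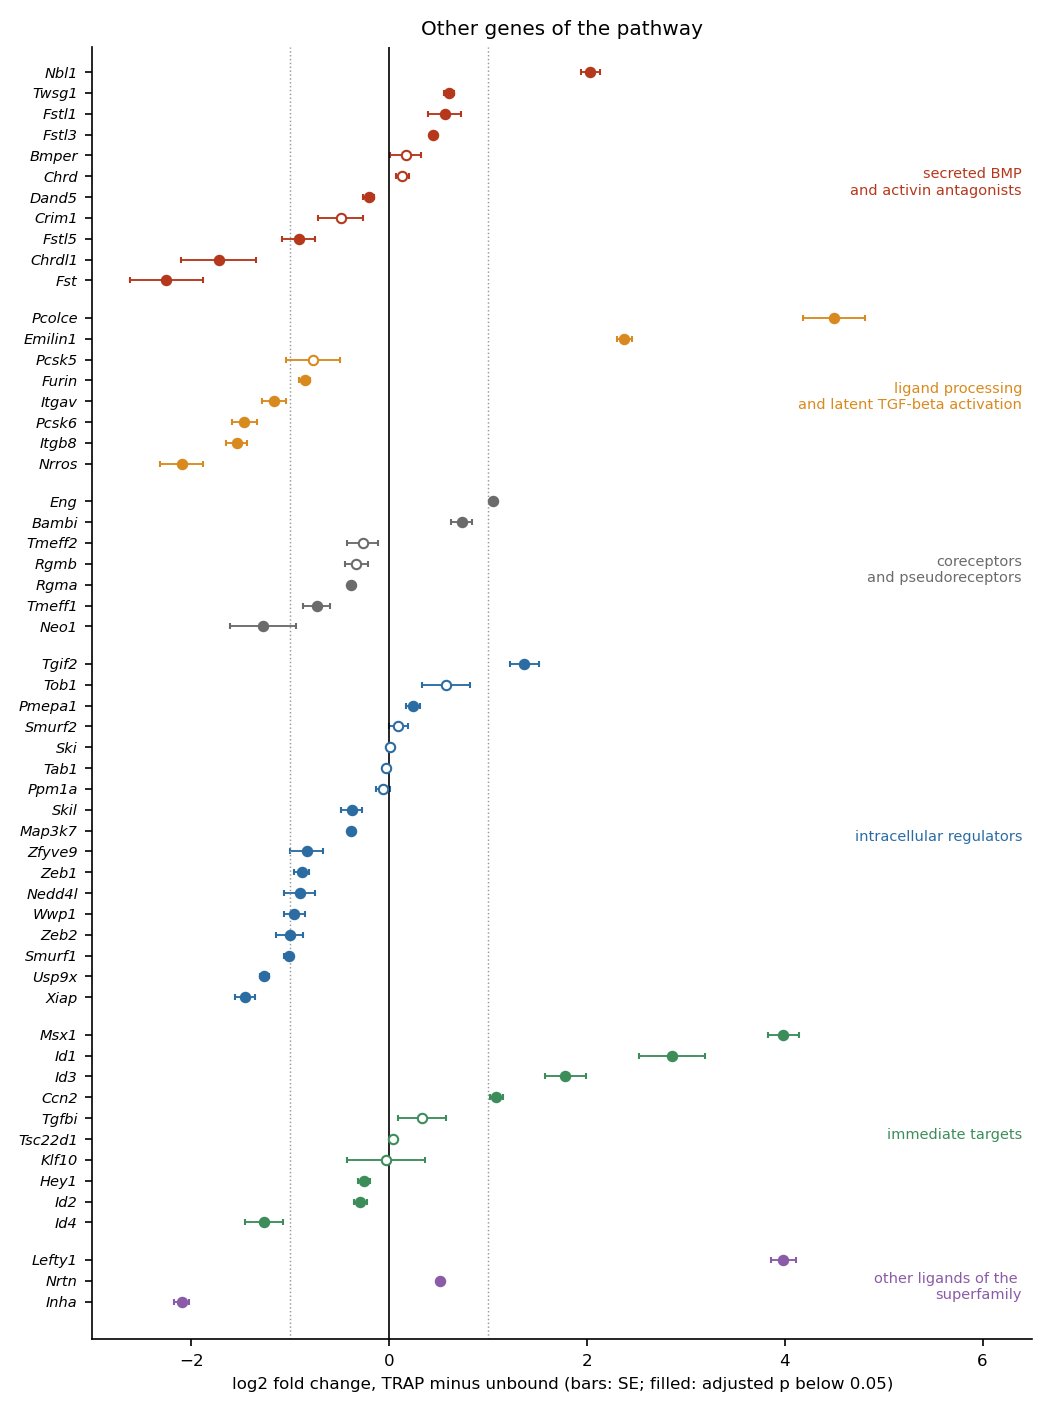
Log2 fold change (TRAP minus unbound, horizontal axis) with SE for the 56 tested genes of the 6 other pathway lists; filled points are called, open points are not, and dotted lines mark 2-fold. Pcolce, Msx1 and Lefty1 lie highest, and Fst, Nrros and Inha lowest.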

How the data were processed

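Total RNA, 15 ng per sample, was amplified with a 2-cycle kit and hybridised to Affymetrix arrays, per the labels' protocols. The authors deposited linear GCRMA intensities, per the submitters' processing notes, which name no version. Whether both groups were normalised in 1 run is not stated either. The table was read as it stands, with 0 sample columns unused.

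Intensities were put on the log2 scale with no pseudocount added. Control probe sets (64) and those below 50 in both group means were left out, which kept 22591. The test was two-sided, by lmFit and eBayes of limma 3.58.1 (R 4.3.3) with a term for group alone, and p-values were adjusted by Benjamini-Hochberg across these probe sets. The fit was tested on simulated data. All 109 signalling probe sets matched a RefSeq gene by Entrez ID, with 0 symbols changed. Of the probe sets on the array, 932 have several symbols and 9211 none, and neither entered gene counts. Promoter windows came from the RefSeq table for GRCm38.p6.

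The genes and lists were chosen with earlier results of these data known. Per-array values are given for genes at least 2-fold changed, for the highest gene of each role and for genes with opposite calls, and up to 4 genes are named per pathway list. Other genes, among them Id2, were named after their values were seen. Same-numbered TRAP and unbound samples deviated together from their group means (correlations of 0.424, 0.454 and 0.374 across probe sets), so the numbers were taken to pair the samples. This rests on the data, since the labels do not state it. Unless said otherwise, calls and counts still come from the fit with group alone, which leaves the pairing out. Fits with the replicate number as a block are given where they changed a call. Alternatives covered the filter, scaling, floor, pseudocount, probe set choice, test, pairing and each array left out. Intensity gives no depth, and the number of arrays limits the precision.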

Additional observations from a re-analysis of the deposited data

How the results depend on the processing

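Direction and side of the threshold were kept in 911 of 993 refits of the 55 named genes. Of the others, 61 lost a call, 5 gained one and 16 changed sign. Changes of filter or probe set choice and the intensity trend left each fold change as it was, so those refits could hardly differ. After centring over all probe sets, 42 genes kept both, 6 lost a call and 7 changed sign. Of 13 signalling probe sets at least 2-fold higher, the count was 8 when both group means had to reach 50 and 2 on probe sets without repeated values, where only 25 of 59 were left. The 10 at least 2-fold lower became 5 and 2 under those settings and 6 with values under 50 raised to 50. The 16 called higher without a fold limit were 34 with no filter, 10 by limma's treat and 2 without repeated values. The 27 called lower were 51 with no filter, 7 by treat, 12 without repeated values, 14 after centring over all probe sets, 16 after centring over those tested (an alternative chosen after seeing the data) and 15 after quantile normalisation. Of the other pathway genes, the 10 at least 2-fold higher were 6 on unmarked probe set types and 5 without repeated values. The 13 lower were 7 and 8 after the 2 centrings, 5 by treat and 8 without repeated values. Leaving out each array in turn gave 13 to 13, 10 to 11, 16 to 17, 20 to 25, 10 to 10 and 11 to 15 for these 6 counts in the same order. The replicate block changed the calls of Acvr1b, Gdf10, Smad3, Tgfb3 and single further probe sets of Bmpr2 and Smad1, and no other call among the 59 probe sets and the named pathway genes. With it the counts were 13, 10, 16, 29, 10 and 13. The split of calls over all probe sets (30.2% higher) was 63.5%, 50.5% and 47.4% under centring over all, centring over those tested and quantile normalisation.

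Signs turned for 8 genes with log2 fold changes between -0.35 and 0.19. Under centring over all probe sets, centring over those tested and quantile normalisation, log2 fold changes became 0.40, 0.23 and 0.17 for Acvr1, 0.19, 0.017 and 0.082 for Acvr2b, 0.27, 0.10 and 0.12 for Bmp1, and 0.34, 0.17 and 0.16 for Tgfbr1. Under the first of these Acvr1 (adjusted p = 9e-04), Tgfbr1 (0.020) and Acvr2b (0.014) were called higher, Acvr2b having been called lower without centring, and Acvr1 was also called under the second (0.017). Centring over all probe sets alone turned Acvr1b (0.16), Ltbp4 (0.087) and Smad3 (0.085). Leaving out each array in turn gave -0.034 to 0.43 for Ltbp3. The cause of these changes was not tested.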

Other observations

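A probe set assigned to both Cers1 and Gdf1, and so kept out of the gene counts, measured 510, 589 and 688 on the TRAP arrays and 785, 635 and 767 on the unbound arrays (log2 -0.29, SE 0.14, limma adjusted p = 0.12). Ttr, a choroid plexus transcript, read 35.0, 36.4 and 175 on the TRAP arrays and 159, 76.3 and 2886 on the unbound arrays, so unbound replicate 3 stood above the other arrays. Each TRAP array lay below the unbound array of its own number. The 5.40-fold decrease was not called (limma adjusted p = 0.23, or 0.054 with replicate number as a block).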
